A study of Mus musculus with 9 samples.

Results

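The unfolded protein response and its endoplasmic reticulum (ER) chaperones were followed through 10 genes chosen by symbol: Xbp1, Atf4, Ddit3, Hspa5, Hsp90b1, Calr, Pdia4, Manf, Dnajb9 and Herpud1. All 10 were among the 25579 gene symbols of the second of 2 deposited tables, which compared treated with homozygous cochleae. Of the 10, only Herpud1 and Manf were among the 1410 symbols of the first table, which compared homozygous with wild-type cochleae. The other 8 were not analysed in that comparison.

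The series held 9 RNA-seq libraries from the cochlear membranous labyrinth, which is the soft part of the hearing organ without its bone, of mice at postnatal day 28. Treated mice were homozygous for hMPZL2Q74X, a humanized Mpzl2 allele with a nonsense change, and had received AAV-ie-ABE8eWQ-SpRY:sgRNA3 into the cochlea by the round window membrane route on postnatal day 2. That agent is an adeno-associated virus with a guide RNA and an adenine base editor, an enzyme that rewrites A to G in DNA. Homozygous mice carried the same allele on both chromosomes and were not labelled as injected, and wild-type (WT) mice were labelled Mpzl2 WT. Each group had 3 libraries, described as biological replicates, and nothing in the labels says whether animals were pooled. A group that received a vector without an editor was not analysed here, so the effects of the injection, the vector and the edit cannot be told apart.

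Proteins that enter the secretory pathway fold in the ER lumen with the help of chaperones, and unfolded protein there is sensed by IRE1, PERK and ATF6. IRE1 splices the mRNA of Xbp1 into the form that encodes an active factor, PERK slows translation while letting Atf4 mRNA be translated more, and ATF6 is cut to release a factor that activates chaperone genes. Much of this control acts on splicing, translation and cleavage, which a gene-level RNA abundance does not show. Secretory cells depend on the response, and the cochlea holds cells with a large output of matrix protein, among them the fibrocytes of the lateral wall.

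Treated libraries 1 and 2 were close to identical. For genes at 1 to 5 TPM (transcript abundance per length, scaled to a fixed library total) the spread of their log2 ratio was 0.0695, against 0.869 to 1.09 between pairs of homozygous libraries. The difference between them was smaller than the noise between any other replicates, and they were averaged and counted as 1 sample, so the treated group had 2 samples and the homozygous group 3. The same 2 libraries stood apart from treated library 3 in markers of forebrain neurons. The 6 listed genes summed to 1357, 1332 and 181 TPM in treated libraries and to 159, 166 and 194 TPM in homozygous libraries. Slc17a7 made up most of the sum in treated library 3 and in homozygous libraries. It had 459, 461 and 157 TPM in treated libraries and 149, 140 and 183 TPM in homozygous libraries. Camk2a, a kinase of forebrain excitatory neurons, had 745, 722 and 8.13 TPM in treated libraries and 0.471, 0.503 and 0.554 TPM in homozygous libraries. Tbr1, a cortical factor, had 27.3, 26.4 and 0 TPM in treated libraries and 0, 0 and 0.362 TPM in homozygous libraries, and none of the 4 tested genes of the list was called. Each member is therefore also given for treated libraries 1 and 2 and for treated library 3 apart. Mpzl2, the targeted gene, had 5.64, 5.62 and 16.3 TPM in treated libraries and 17.4, 24.0 and 13.1 TPM in homozygous libraries, and the test was not passed (log2 fold change of -0.80 at a limma adjusted p of 0.335). An abundance does not show whether a transcript was edited. How reads of the humanized allele were assigned to mouse Mpzl2 is not known here.

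The first question was whether treated cochleae differed from untreated homozygous cochleae in these genes. Xbp1, Hspa5 and Pdia4 lay higher in all treated libraries, with mean levels of 149, 899 and 206 TPM in treated samples against 85.0, 516 and 126 TPM in homozygous samples. Dnajb9 lay lower in all of them, at a mean of 32.3 TPM in treated samples against 49.9 TPM in homozygous samples. Calr, Atf4 and Ddit3 differed less, and Manf, Hsp90b1 and Herpud1 overlapped between the groups. None of the 10 members passed the test at a limma adjusted p of 0.05, where 4.41% of the 17102 tested genes did. At an unadjusted limma p under 0.05 there were 4 members, Xbp1, Hspa5, Pdia4 and Dnajb9, where 26.7% of all tested genes reached that level. The first 3 of them were higher, against 18.8% of all tested genes, and Dnajb9 was lower, against 7.92%. With treated libraries 1 and 2 as separate samples, Xbp1, Hspa5 and Dnajb9 passed the test, but so did 20.8% of all tested genes.

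**Figure D1:**
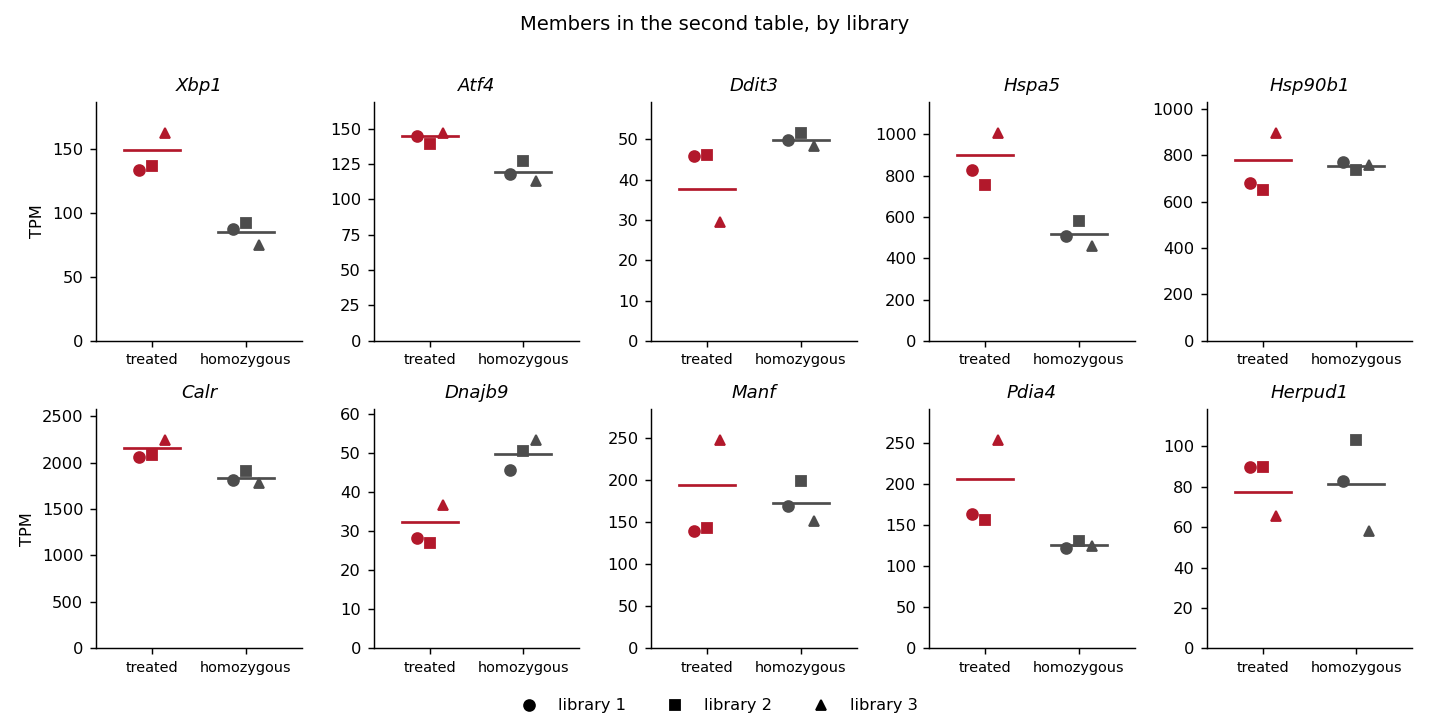
TPM of the 10 members in each treated library and each homozygous library of the second table, with 1 panel per gene and 1 marker shape per library number. Xbp1, Hspa5 and Pdia4 lie higher in every treated library, and Dnajb9 lies lower in every treated library.

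Among the transcription factors, Xbp1 encodes the factor that IRE1 activates. It had 134, 137 and 163 TPM in treated libraries, against 88.0, 92.1 and 75.1 TPM in homozygous libraries. The groups did not overlap, and the mean was 149 ± 19.2 TPM in treated samples (SD, n = 2) and 85.0 ± 8.88 TPM in homozygous samples (SD, n = 3). The log2 fold change was 0.80 with a standard error of 0.19 and a 95% interval of 0.36 to 1.25 (limma adjusted p = 0.0595). This was the smallest adjusted p among the members.

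Atf4 encodes the factor that is translated when PERK is active. It had 145, 139 and 147 TPM in treated libraries, against 118, 127 and 113 TPM in homozygous libraries. Every treated library lay above every homozygous one, by a small margin, and the log2 fold change of 0.28 had a 95% interval of -0.1 to 0.66 (limma adjusted p = 0.312). It was 0.25 for treated libraries 1 and 2 and 0.30 for treated library 3.

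Ddit3 encodes CHOP, a factor downstream of ATF4 that is known from the response to prolonged ER stress. Its summed level was 45.9, 46.2 and 29.4 TPM in treated libraries, against 49.7, 51.6 and 48.3 TPM in homozygous libraries. All treated libraries lay lower, and library 3 lay far below the other treated libraries. The log2 fold change was -0.43 with a 95% interval of -1.01 to 0.15 (limma adjusted p = 0.304), and it was -0.11 for treated libraries 1 and 2 and -0.74 for treated library 3. The table held Ddit3 in 2 rows, between which reads can be split, so its level is uncertain. The larger row had 39.8, 41.4 and 23.9 TPM in treated libraries and 44.4, 45.7 and 29.6 TPM in homozygous libraries, where the groups overlapped.

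ATF6 and spliced XBP1 act on target genes through short promoter elements. The promoters are shown for exact matches to canonical elements near the annotated start. RefSeq gave a window for 9 of the 10 members, from 250 bases before to 50 bases after the annotated start in build GRCm38.p6; Manf had no entry. Each window was searched on both strands for the ER stress response element (ERSE, which is CCAAT, 9 free bases and CCACG), its shorter form ERSE-II (ATTGG, 1 free base and CCACG), the core of the unfolded protein response element (UPRE, TGACGTG) and an element bound by ATF4 (CARE, TGATGCAA). ERSE stood in 0.119%, ERSE-II in 0.0365%, the UPRE core in 2.01% and CARE in 0.895% of the 32851 mouse promoter windows of the same length. The search found at least 1 of them in 4 members, and no exact match in the windows of Xbp1, Atf4, Ddit3, Dnajb9 and Pdia4. Elements that differ from these letters or lie outside the window were not searched for, so these members are not shown to lack one. The Hspa5 window lies at chr2:34771840-34772139 on the plus strand, with the UPRE core and then the ERSE in capitals, at bases -157 and -65 from the start.
Hspa5 promoter: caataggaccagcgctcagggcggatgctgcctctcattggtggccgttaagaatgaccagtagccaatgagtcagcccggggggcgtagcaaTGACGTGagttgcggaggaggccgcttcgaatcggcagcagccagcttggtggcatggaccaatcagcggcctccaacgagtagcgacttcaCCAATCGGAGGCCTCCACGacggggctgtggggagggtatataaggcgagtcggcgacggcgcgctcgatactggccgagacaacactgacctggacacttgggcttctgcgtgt

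Hsp90b1 held an ERSE on each strand and Calr held 1 on the reverse strand. The 4 ERSE matches of the members are set below each other in the orientation of the motif, with its fixed letters in capitals and the 9 free letters in lower case.
Hspa5 at -65: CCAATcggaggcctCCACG
Hsp90b1 at -212: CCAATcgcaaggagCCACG
Hsp90b1 at -107, reverse strand: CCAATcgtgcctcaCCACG
Calr at -162, reverse strand: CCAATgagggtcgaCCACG
Herpud1 held the ERSE-II at -52 and a CARE match on the reverse strand at -112, both in capitals in its window at chr8:94386179-94386478 on the plus strand.
Herpud1 promoter: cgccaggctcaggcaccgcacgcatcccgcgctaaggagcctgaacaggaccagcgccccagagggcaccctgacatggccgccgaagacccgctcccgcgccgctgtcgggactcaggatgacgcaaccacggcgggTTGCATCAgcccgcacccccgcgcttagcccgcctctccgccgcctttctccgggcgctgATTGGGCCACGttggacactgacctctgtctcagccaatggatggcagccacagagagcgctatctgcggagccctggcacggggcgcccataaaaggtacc

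The 3 members with an exact ERSE match are the abundant lumenal chaperones. Hspa5 encodes BiP, the Hsp70 of the ER lumen, which also binds the stress sensors. It had 826, 755 and 1008 TPM in treated libraries, against 508, 582 and 459 TPM in homozygous libraries. The lowest treated library lay above the highest homozygous one, with means of 899 ± 154 TPM in treated samples (SD, n = 2) and 516 ± 62.3 TPM in homozygous samples (SD, n = 3). The log2 fold change was 0.80 with a standard error of 0.21 and a 95% interval of 0.29 to 1.3 (limma adjusted p = 0.0785).

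Hsp90b1 encodes GRP94, the Hsp90 of the ER lumen. It had 680, 649 and 898 TPM in treated libraries, against 772, 737 and 758 TPM in homozygous libraries. Treated libraries 1 and 2 lay below every homozygous library and treated library 3 lay above them. Its log2 fold change of 0.03 had a 95% interval of -0.47 to 0.53 (limma adjusted p = 0.939), and was -0.19 for treated libraries 1 and 2 and 0.25 for treated library 3.

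Calr encodes calreticulin, a calcium-binding chaperone for glycoproteins and the most abundant member. It had 2058, 2085 and 2239 TPM in treated libraries, against 1813, 1908 and 1784 TPM in homozygous libraries. The groups did not overlap, and the log2 fold change of 0.23 had a 95% interval of -0.32 to 0.78 (limma adjusted p = 0.556). Treated libraries 1 and 2 gave 0.18 and treated library 3 gave 0.29. Holding an exact ERSE match thus went with log2 fold changes of 0.80 for Hspa5, 0.03 for Hsp90b1 and 0.23 for Calr, none past the test.

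Pdia4 encodes a protein disulfide isomerase of the ER, which forms and rearranges disulfide bonds. It had 164, 156 and 253 TPM in treated libraries, against 122, 131 and 124 TPM in homozygous libraries. Treated library 3 stood well above the other treated libraries, and the groups did not overlap. On the log2 scale the fold change was 0.67 with a 95% interval of 0.13 to 1.22 (limma adjusted p = 0.126), and was 0.34 for treated libraries 1 and 2 and 1.0 for treated library 3.

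Manf encodes a small secreted ER protein that binds BiP. It had 139, 143 and 247 TPM in treated libraries, against 169, 199 and 151 TPM in homozygous libraries. Its direction differed between treated libraries, with a log2 fold change of -0.28 for libraries 1 and 2 and 0.52 for library 3. With both treated samples it was 0.12, with a 95% interval of -0.53 to 0.77 (limma adjusted p = 0.813).

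Dnajb9 encodes ERdj4, a co-chaperone of BiP and a known target of spliced XBP1. It had 28.4, 27.1 and 36.8 TPM in treated libraries, against 45.7, 50.7 and 53.3 TPM in homozygous libraries. Every treated library lay below every homozygous library, while Xbp1 and Hspa5 lay above. The mean was 32.3 ± 6.42 TPM in treated samples (SD, n = 2) and 49.9 ± 3.86 TPM in homozygous samples (SD, n = 3). The log2 fold change was -0.62 with a 95% interval of -1.14 to -0.11 (limma adjusted p = 0.134). It was -0.82 for treated libraries 1 and 2 and -0.43 for treated library 3.

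Herpud1 encodes a membrane protein of the ER-associated degradation machinery (ERAD), which removes misfolded protein. It had 89.6, 89.7 and 65.7 TPM in treated libraries, against 82.7, 103 and 58.2 TPM in homozygous libraries. The groups overlapped, with the widest spread among homozygous libraries of the 10 members relative to the mean, and the log2 fold change of -0.04 had a 95% interval of -0.72 to 0.64 (limma adjusted p = 0.939). It was 0.18 for treated libraries 1 and 2 and -0.26 for treated library 3.

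Over the members, 5 lay higher in every treated library (Xbp1, Hspa5, Pdia4, Atf4 and Calr), against 28% of all tested genes. A further 2 lay lower in every treated library (Dnajb9 and Ddit3), against 14.8% of all tested genes. The 7 together compare with 42.7% of all tested genes that did not overlap in either direction. The median log2 fold change of the 10 members was 0.17 and that of all 17102 tested genes was 0.20, with 5 members above that of all genes. Scaling by the median of ratios moved the median of all genes to 0.02, and the members' median to -0.03. Under that scaling the log2 fold change was 0.60 for Xbp1, 0.59 for Hspa5, 0.47 for Pdia4, 0.08 for Atf4, 0.03 for Calr, -0.63 for Ddit3 and -0.82 for Dnajb9, while Manf at -0.08 and Hsp90b1 at -0.17 changed sign. For treated library 3 alone the members' median was 0.30 and that of all genes 0.09. For treated libraries 1 and 2 the values were 0.18 and 0.29.

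**Figure D2:**
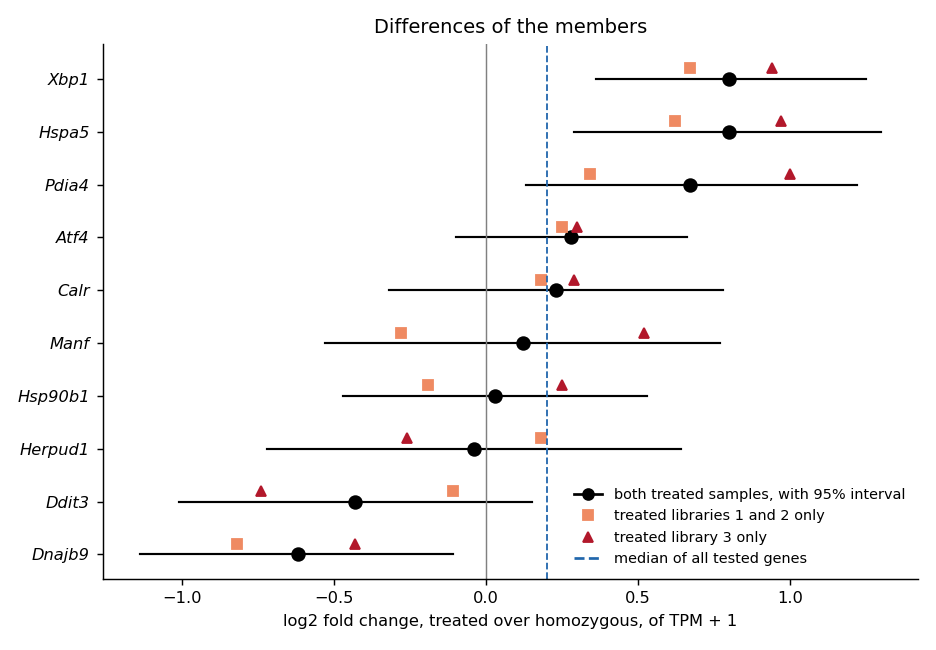
Log2 fold change of each member, treated over homozygous, with its 95% interval for both treated samples, and with separate points for treated libraries 1 and 2 and for treated library 3; the dashed line is the median of all tested genes, 0.20. The points for library 3 lie above those for libraries 1 and 2 for Hspa5 (0.97 and 0.62) and Pdia4 (1.0 and 0.34), and below them for Ddit3 and Herpud1.

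The members covered a wide range of levels, which can be compared between genes because TPM is scaled by transcript length. In treated samples the order of the mean levels was Calr at 2155, Hspa5 at 899, Hsp90b1 at 781, Pdia4 at 206, Manf at 194, Xbp1 at 149, Atf4 at 145, Herpud1 at 77.7, Ddit3 at 37.7 and Dnajb9 at 32.3 TPM. Libraries overlapped between Hspa5 and Hsp90b1, between neighbours from Pdia4 to Atf4, and between Ddit3 and Dnajb9. In homozygous samples Hsp90b1 at 756 TPM stood above Hspa5 at 516 TPM in every library, and Ddit3 and Dnajb9 both averaged 49.9 TPM. Calr ranked between 17 and 39 among all genes of a library, whereas Dnajb9 ranked between 3799 and 7837.

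Ratios of members within a library do not depend on how libraries are scaled, and the pairs given here were chosen after their values were seen. Hspa5 over Hsp90b1, the lumenal Hsp70 over the lumenal Hsp90, was 1.22, 1.16 and 1.12 in treated libraries and 0.658, 0.79 and 0.605 in homozygous libraries. Dnajb9 over Hspa5, the co-chaperone over its partner, was 0.0343, 0.0359 and 0.0365 in treated libraries and 0.0899, 0.0871 and 0.116 in homozygous libraries. The groups did not overlap in either ratio, which follows in part from the choice of the pairs and is a description without a test. Xbp1 over Atf4 was 0.927, 0.986 and 1.11 in treated libraries and 0.744, 0.726 and 0.667 in homozygous libraries.

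The wider pathway was followed in 105 genes in 7 lists, of which 104 were tested in the second table. Of these, 5 passed the test, 2 higher and 3 lower, where 3.44% of all tested genes were called higher and 0.965% lower. The 5 were targets of the PERK arm, components of protein targeting and translocation, and a cytosolic co-chaperone. None was a lumenal chaperone, an isomerase, an ERAD component or a stress sensor. With 4.41% of all tested genes called, 0 calls in lists of 10 to 15 genes say little about those lists.

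Both genes that rose belong to the PERK-ATF4 list. Atf5, a stress-induced factor related to ATF4, had 83.6, 82.1 and 111 TPM in treated libraries, against 34.7, 49.2 and 35.7 TPM in homozygous libraries (log2 fold change 1.26, SE 0.24, limma adjusted p = 0.0423). Cebpb, a bZIP factor that can pair with CHOP and is also known from inflammation, had 40.4, 38.3 and 23.2 TPM in treated libraries, against 8.99, 7.70 and 6.24 TPM in homozygous libraries (log2 fold change 1.87, SE 0.35, limma adjusted p = 0.0407). The groups did not overlap for either gene. The other 20 of 22 tested genes of the list did not pass, and the median log2 fold change of the list was 0.27. The call of Atf5 ended at median-of-ratios scaling (log2 fold change 1.06, limma adjusted p = 0.0713), with mitochondrially encoded genes left out (0.0568) and with no filter on low values (0.0936), which also ended that of Cebpb (0.0933). Leaving out any 1 homozygous library ended the calls of Atf5 and Cebpb, with limma adjusted p from 0.0628 to 0.197, and leaving out treated library 3 ended that of Atf5 (0.0542). With treated library 3 as the only treated sample, limma adjusted p was 0.0723 for Atf5 and 0.0852 for Cebpb. In fits with 1 treated sample all of the spread comes from the homozygous libraries, and that sample is assumed to vary as they do.

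The genes that fell were Sec61g, Srp19 and Dnaja1. Sec61g, a subunit of the channel through which nascent proteins enter the ER, had 6.80, 9.40 and 13.4 TPM in treated libraries, against 44.1, 44.5 and 41.6 TPM in homozygous libraries (log2 fold change -1.96, SE 0.27, limma adjusted p = 0.0214). Srp19, a subunit of the signal recognition particle, had 20.9, 20.3 and 15.9 TPM in treated libraries, against 53.5, 43.5 and 44.5 TPM in homozygous libraries (log2 fold change -1.33, SE 0.23, limma adjusted p = 0.0354). They were the 2 called genes among 17 in the list of XBP1 targets, translocation and export, whose median was 0.02. Dnaja1, a co-chaperone of cytosolic Hsp70, had 80.2, 83.4 and 73.2 TPM in treated libraries, against 258, 204 and 229 TPM in homozygous libraries (log2 fold change -1.56, SE 0.18, limma adjusted p = 0.0129), and was the 1 called gene of 12 in the heat shock list. Leaving out any 1 homozygous library ended the calls of Sec61g and Srp19, with limma adjusted p from 0.0696 to 0.195, as did no filter on low values (0.0631 and 0.0752), and leaving out homozygous library 1 or 3 ended that of Dnaja1 (0.1 and 0.091). With treated library 3 as the only treated sample, Srp19 had a limma adjusted p of 0.059.

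Counts in the next lists stand against 4.41% of all tested genes called, and 18.8% higher and 7.92% lower at an unadjusted limma p under 0.05. In the list of ATF6 targets and lumenal chaperones 0 of 14 genes passed, with 5 higher and 2 lower at an unadjusted limma p under 0.05 and a median log2 fold change of 0.15. Canx, the membrane-bound relative of calreticulin, had 864, 879 and 978 TPM in treated libraries and 1064, 949 and 978 TPM in homozygous libraries (log2 fold change -0.11, limma adjusted p = 0.759). Hyou1, a lumenal Hsp110 and exchange factor of BiP, was chosen after its values were seen and had 106, 101 and 111 TPM in treated libraries, against 56.5, 66.9 and 50.7 TPM in homozygous libraries (log2 fold change 0.88, limma adjusted p = 0.0548). Sil1, the other exchange factor of BiP, was chosen in the same way, with 87.5, 78.7 and 145 TPM in treated libraries, against 52.4, 52.3 and 37.8 TPM in homozygous libraries (log2 fold change 1.21, limma adjusted p = 0.0653). Neither passed, and 28% of all tested genes likewise lay higher in every treated library. Of the J-domain proteins of the lumen, Dnajb9 and Dnajb11 lay lower in every treated library, the second at -0.81 on the log2 scale (limma adjusted p = 0.0797). Dnajc3 (0.09, limma adjusted p = 0.828) and Dnajc10 (0.06, limma adjusted p = 0.878) overlapped between the groups. Dnajb11, Dnajc3 and Dnajc10 were also named after their values were seen.

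In the list of oxidative folding and isomerases 0 of 14 genes passed, with 2 higher and 3 lower at an unadjusted limma p under 0.05 (18.8% and 7.92% of all tested genes) and a median of -0.10. Pdia3, the glycoprotein-specific disulfide isomerase, had 300, 289 and 385 TPM in treated libraries and 352, 345 and 340 TPM in homozygous libraries (log2 fold change -0.04, limma adjusted p = 0.915). Ppib, a prolyl isomerase that works on collagen, had 210, 207 and 359 TPM in treated libraries and 228, 253 and 189 TPM in homozygous libraries (log2 fold change 0.30, limma adjusted p = 0.512). Both overlapped between the groups, and both were highest in treated library 3.

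In the ERAD list 0 of 15 genes passed, with 3 higher and 1 lower at an unadjusted limma p under 0.05 (18.8% and 7.92% of all tested genes) and a median of 0.28. Sel1l, the adaptor of the HRD1 ubiquitin ligase, had 324, 327 and 306 TPM in treated libraries, against 201, 201 and 199 TPM in homozygous libraries (log2 fold change 0.65, limma adjusted p = 0.0630). Vcp, the ATPase that pulls substrates out of the membrane, differed by 0.02 on the log2 scale (limma adjusted p = 0.940). Among the sensors and activators 0 of 10 passed, with 2 higher and 1 lower at an unadjusted limma p under 0.05 (18.8% and 7.92% of all tested genes) and a median of 0.18. Crebrf, a regulator of the CREB3 family of ER-anchored factors, differed by 0.08 on the log2 scale (limma adjusted p = 0.774).

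**Figure D3:**
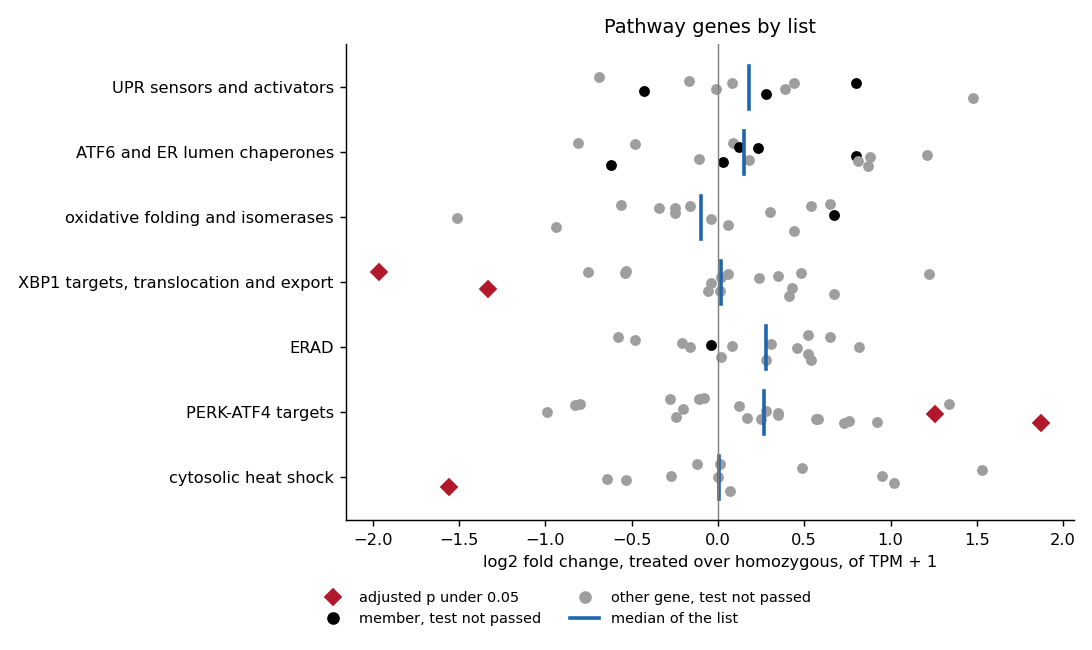
Log2 fold change, treated over homozygous, of each tested gene in the 7 pathway lists, with the list median as a vertical bar. The 5 diamonds that passed the test are Atf5 and Cebpb on the higher side and Sec61g, Srp19 and Dnaja1 on the lower side, and the members, drawn in black, spread on both sides of 0.

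Promoters with an exact match to ERSE or ERSE-II were also followed beyond the members. Such windows belonged to 49 gene symbols, of which 32 were tested, among them 4 members and 12 genes of the pathway lists. None of the 32 passed the test, where 4.41% of all tested genes did. At an unadjusted limma p under 0.05 there were 11, 6 higher and 5 lower, where 26.7% of all tested genes reached that level, 18.8% higher and 7.92% lower. Their log2 fold changes ran from -1.73 to 2.03 with a median of 0.05, and 17 of 32 lay above 0.

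Other cell types and RNA composition moved with the treatment. The 6 listed macrophage genes summed to 274, 262 and 231 TPM in treated libraries and 53.0, 82.4 and 54.4 TPM in homozygous libraries, with 4 called higher. The 5 T cell genes summed to 69.2, 60.6 and 108 TPM in treated libraries and 6.21, 3.92 and 3.08 TPM in homozygous libraries, with 4 called higher. All 7 listed interferon response genes were called higher, with sums of 1636, 1611 and 1817 TPM in treated libraries and 106, 129 and 132 TPM in homozygous libraries. Those leukocyte and interferon sums lay higher in every treated library than in every homozygous library, as did 28% of all tested genes.

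Plasma cells, a cell type with high levels of Xbp1 and ER chaperones, were followed in 7 genes, of which 5 were tested. The 7 genes summed to 113, 110 and 85.3 TPM in treated libraries and 46.7, 63.4 and 35.2 TPM in homozygous libraries. Of the tested genes 0 were called at an adjusted p. At an unadjusted limma p under 0.05, 2 were higher, Ighm and Igkc, against 18.8% of all tested genes. Ighm, the IgM heavy chain that B cells also make, had 76.6, 74.1 and 57.9 TPM in treated libraries and 36, 46.3 and 29.5 TPM in homozygous libraries. Igkc, an immunoglobulin light chain, had 24.4, 24.2 and 17.7 TPM in treated libraries and 6.49, 10.1 and 2.44 TPM in homozygous libraries. Both lay higher in every treated library, as did 28% of all tested genes. Mzb1, an ER protein of B and plasma cells, had 8.06, 7.7 and 0.394 TPM in treated libraries and 0, 1.2 and 0 TPM in homozygous libraries. Jchain, which joins IgA and IgM, had 0.712, 0.682 and 1.63 TPM in treated libraries and 0.559, 0 and 0.597 TPM in homozygous libraries. Tnfrsf17, the plasma cell receptor BCMA, was listed at 0 in all treated libraries and at 0.0558, 0.146 and 0.681 TPM in homozygous libraries. Sdc1 and Prdm1, the other genes of the list, overlapped between the groups.

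Markers of bone forming cells summed to 136, 132 and 111 TPM in treated libraries and 260, 1021 and 279 TPM in homozygous libraries, with 1 of 6 called lower. The cochlear fibrocyte markers, from a cell type with a large secretory load, summed to 5657, 5521 and 6189 TPM in treated libraries and 12312, 12804 and 9541 TPM in homozygous libraries, with 1 of 5 called lower. Coch and Otos made up most of these sums, and Otos was the called gene (limma adjusted p = 0.0346). Coch did not pass (limma adjusted p = 0.165), and Slc4a11 and Gjb6 overlapped between the groups. Transcripts of the mitochondrial genome made up 2.17%, 2.22% and 6.16% of TPM in treated libraries and 13.6%, 10.7% and 13.4% in homozygous libraries.

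The part of these cell types and of the mitochondrial share in the members' differences was not tested. In bulk tissue, fewer cells of a type and less RNA per cell cannot be told apart. The log2 fold change was 0.94 for Xbp1, 0.97 for Hspa5 and 1.0 for Pdia4 in treated library 3. For treated libraries 1 and 2 it was 0.67, 0.62 and 0.34. Each of these values rests on 1 treated sample, and the part of the forebrain transcripts was not tested. Markers of hair cells, supporting cells and the stria vascularis were present in all libraries. Hair cell sums were 251, 209 and 119 TPM in treated libraries and 45.8, 64.2 and 97.5 TPM in homozygous libraries. The test called 0 of 5 hair cell genes, 1 of 5 supporting cell genes (Otog, higher) and 0 of 5 stria vascularis genes. Over all tested genes 4.41% were called. The median log2 fold change was 1.11, 1.07 and 0.73 in these lists, in the same order, and 0.20 over all tested genes.

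**Figure D4:**
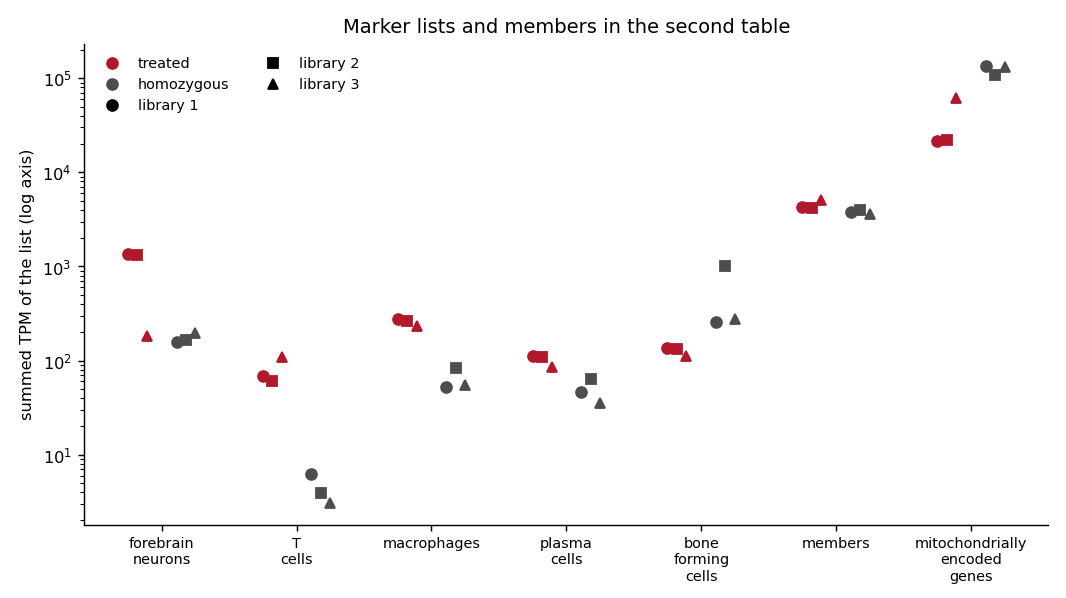
Summed TPM, on a log axis, in each treated and homozygous library. The lists are markers of forebrain neurons, T cells, macrophages, plasma cells and bone forming cells, the 10 members, and mitochondrially encoded genes. The members' sums lie close together, at 4310, 4227 and 5087 TPM in treated and 3769, 3981 and 3623 TPM in homozygous libraries, while the T cell sums lie far apart.

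The second question was whether homozygous cochleae differed from WT cochleae. Manf and Herpud1, the only members of the first table, both averaged higher in homozygous libraries, and Manf passed the test. Manf had 135, 164 and 123 TPM in homozygous libraries, against 97.4, 101 and 113 TPM in WT libraries. Every homozygous library lay above every WT library, as for 31.5% of the genes tested there, with means of 141 ± 21.3 TPM in homozygous and 104 ± 7.88 TPM in WT libraries (SD, n = 3 each). The difference was 0.43 on the log2 scale, with a 95% interval of 0.1 to 0.75 (limma adjusted p = 0.0448). That table is the authors' selection of genes, in which 51.3% of the 1348 tested genes were called and 17.9% were called higher (241 genes, and 472 at median-of-ratios scaling), so a call there is common and is nothing particular to Manf. Manf kept its call only without homozygous library 3 and lost it without any 1 of the other 5 libraries, with limma adjusted p from 0.0364 to 0.109 over the 6 fits.

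Herpud1 had 59.3, 80.7 and 38.9 TPM in homozygous libraries, against 37.4, 45.1 and 39.8 TPM in WT libraries. Homozygous library 3 lay within the WT range and the other homozygous libraries lay above it. On the log2 scale the difference was 0.48 with a 95% interval of -0.08 to 1.04 (limma adjusted p = 0.0905), and without homozygous library 3 it was 0.75 (limma adjusted p = 0.0279).

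Markers of cell types moved in the same table, in which several lists have few genes. Of all genes tested there, 17.9% were called higher and 33.5% lower. Of 2 bone forming genes both fell, with Ibsp at 62.6, 183 and 67.0 TPM in homozygous libraries against 240, 232 and 381 TPM in WT libraries, and Dmp1 at a log2 fold change of -1.31. Of 3 fibrocyte genes Slc4a11 rose to 316, 816 and 280 TPM in homozygous libraries, against 138, 84.1 and 170 TPM in WT libraries. Otor fell by 0.88 on the log2 scale. Coch, the most abundant of the 3, overlapped between the groups (log2 fold change 0.26, limma adjusted p = 0.26). Of 2 genes of the stria vascularis Lrp2 rose to 265, 553 and 244 TPM in homozygous libraries, against 183, 180 and 152 TPM in WT libraries. Kcnj10, the other gene, was not called (log2 fold change 0.35, limma adjusted p = 0.0828). Homozygous library 2 was the highest homozygous library for Slc4a11 and Lrp2, and also for Manf at 164 TPM and Herpud1 at 80.7 TPM. Ighm, Slc17a7 and Tectb were called lower and Oas1a higher, as the only called genes of the plasma cell, forebrain neuron, supporting cell and interferon lists. The part of these cell types in the differences of Manf and Herpud1 was not tested. Without homozygous library 2 the log2 fold change was 0.31 for Manf (limma adjusted p = 0.0563) and 0.24 for Herpud1 (limma adjusted p = 0.267).

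The first table held 12 tested genes of the pathway lists, the 2 members included, and 6 passed, where 51.3% of all tested genes did. Of the 6, 4 were higher and 2 lower, where 17.9% of all tested genes were called higher and 33.5% lower. Hspb1, the small cytosolic heat shock protein Hsp27, rose to 57.2, 73.6 and 51.1 TPM in homozygous libraries, against 25.7, 26.6 and 29.0 TPM in WT libraries (log2 fold change 1.12, limma adjusted p = 0.00544). Hsph1, a cytosolic Hsp110, rose to 155, 123 and 149 TPM in homozygous libraries, against 101, 83.3 and 90.9 TPM in WT libraries (log2 fold change 0.62, limma adjusted p = 0.0205). Hspa1b, an inducible cytosolic Hsp70, differed by 0.64 on the log2 scale (limma adjusted p = 0.0496), a call that ended without any 1 library, and it shares reads with its near-identical copy Hspa1a (0.58, limma adjusted p = 0.0801). The called heat shock genes act in the cytosol, not in the ER lumen.

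Erp29, an ER lumen protein related to the disulfide isomerases, fell to 55.1, 57.6 and 46.5 TPM in homozygous libraries, against 92.9, 78.8 and 75.7 TPM in WT libraries (log2 fold change -0.63, limma adjusted p = 0.0207). Mthfd2, a mitochondrial folate enzyme that ATF4 is known to activate, fell to 13.1, 19.8 and 22.4 TPM in homozygous libraries, against 28.1, 30.0 and 28.3 TPM in WT libraries (log2 fold change -0.65, limma adjusted p = 0.0418). Every homozygous library lay below every WT library for both genes, as for 45.6% of the genes tested there. Erp29 lost its call without any 1 WT library, Hsph1 without WT library 2 or 3 or homozygous library 1, and Mthfd2 without any 1 WT library or homozygous library 1, with limma adjusted p from 0.0533 to 0.0959 over these fits. The call of Mthfd2 also ended at median-of-ratios scaling (0.0578). The other genes did not pass: Crebrf at 0.32 (limma adjusted p = 0.0667), Asns at -0.52 (0.0934), Vldlr at 0.41 (0.105) and Aldh1l2 at -0.65 (0.0533). Mpzl2 itself had 16.7, 23.2 and 12.5 TPM in homozygous libraries, against 33.6, 43.9 and 49.0 TPM in WT libraries (log2 fold change -1.25, limma adjusted p = 0.0139, and 0.0544 without WT library 3). The part that read assignment of the humanized allele has in this difference was not tested.

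**Figure D5:**
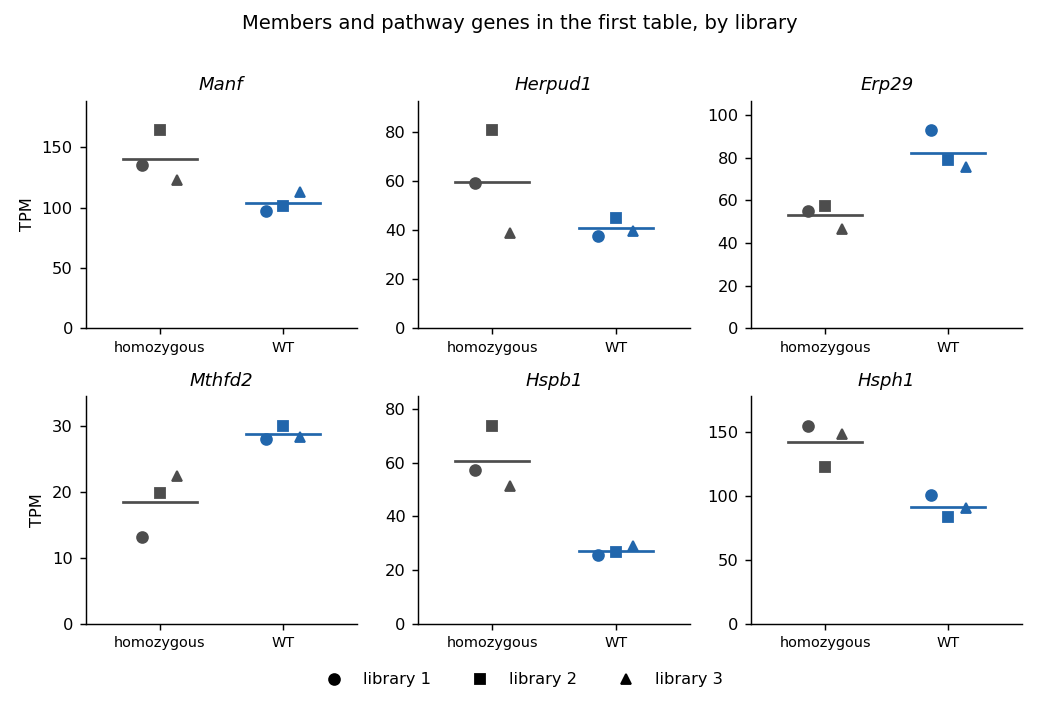
TPM of Manf, Herpud1, Erp29, Mthfd2, Hspb1 and Hsph1 in each homozygous and each WT library of the first table, with 1 panel per gene. The other pathway genes of that table are not drawn. Hspb1, Hsph1 and Manf lie higher in every homozygous library, Erp29 and Mthfd2 lie lower in every homozygous library, and Herpud1 overlaps between the groups.

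Both comparisons share the homozygous animals, so their differences are not independent, and no test was made across the tables. The homozygous libraries also had other values in each table. Their level in the first table over that in the second was 0.796, 0.827 and 0.811 for Manf and 0.717, 0.787 and 0.669 for Herpud1, with a median of 0.855 to 0.858 over 1224 shared genes. Manf had a log2 fold change of 0.12 in treated against homozygous libraries and of 0.43 in homozygous against WT libraries. For Herpud1 the values were -0.04 and 0.48. Erp29 had a log2 fold change of 0.65 in treated against homozygous libraries (limma adjusted p = 0.0942), and of -0.63 in homozygous against WT libraries. Hspb1 had 1.53 (limma adjusted p = 0.0571) and 1.12, Hsph1 had -0.27 (limma adjusted p = 0.383) and 0.62, in the same order.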

How the data were processed

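The 9 libraries were made with a stranded total RNA kit, per the labels' protocols. The values are TPM, which the authors deposited in 2 tables. Per the submitters' processing notes, kallisto 0.51.0, DESeq (without a version) and GRCm39 were used, with no role or setting stated. Since TPM values hold no read totals, sequencing depth is unknown here. Libraries of the second table totalled between 995747 and 996703 TPM, and between 16529 and 17281 genes reached 1 TPM. How the genes of the first table were selected is not given either, so adjusted p-values within it may be too small.

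Rows of a repeated symbol were summed. Tests were limited to genes that reached 1 TPM in at least 3 libraries, 17102 and 1348 in all, and all members passed this filter. Within each table, log2(TPM + 1) was fitted with limma 3.58.1 (R 4.3.3), using a mean-variance trend, two-sided tests, Benjamini-Hochberg adjustment over all tested genes and a threshold of 0.05. This scale understates changes of low genes. Treated libraries 1 and 2 entered as their mean. The scripts were tested on simulated data. Alternatives were a pseudocount of 0.1, no filter, median-of-ratios scaling, leaving out each library, libraries 1 and 2 as separate samples, a replicate block and leaving out mitochondrially encoded genes. Treated library 3 alone and rows of repeated symbols kept apart were added after the data were seen.

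The members and lists were chosen with earlier results of these data known. Genes named were the 10 members, Mpzl2, up to 3 higher and 3 lower genes of each pathway list with the smallest p among those that passed, the 2 with the highest mean where none passed, all pathway genes of the first table and, for marker lists, genes with the highest mean. Other marker genes were named as defining or called markers, and other exceptions are stated where they occur. Promoters came from RefSeq on GRCm38.p6, which differs from the authors' build; the deposited tables hold no coordinates. p-values measure the spread between the libraries.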

Additional observations from a re-analysis of the deposited data

How the results depend on the processing

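For treated against homozygous cochleae, 0 members passed under every alternative except treated libraries 1 and 2 as separate samples, which called 3 (Xbp1, Hspa5 and Dnajb9) where 20.8% of all genes were called; with a replicate block added, 0 passed. The call count over all genes was 754 (589 higher, 165 lower), 652 at median-of-ratios scaling (405 higher, 247 lower), 134 with no filter, 3563 with separate samples, 1485 with separate samples and the replicate block, 222 for treated library 3 alone, and 63 to 2984 when 1 library was left out. The highest was without treated library 3. Of the pathway genes 5 passed, against 1 with no filter, 24 with separate samples, 3 for treated library 3 alone and 0 to 13 when 1 library was left out (0 without homozygous library 1 or 3, 1 without homozygous library 2, 13 without treated library 3). For homozygous against WT cochleae, 692 genes passed (241 higher, 451 lower), 684 at median-of-ratios scaling (472 higher, 212 lower), 343 with the replicate block and 103 to 611 when 1 library was left out. There 1 member passed, against 0 with the replicate block and 0 to 2 when 1 library was left out, and 6 pathway genes, against 3 with the block and 1 to 7.

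Signs changed as follows, for genes that did not pass. Their log2 fold changes were near 0 except that of Ppib, at 0.30. Median-of-ratios scaling gave -0.08 for Manf, -0.17 for Hsp90b1, -0.12 for Crebrf and -0.18 for Vcp. Leaving out mitochondrially encoded genes gave -0.01, -0.1, -0.05 and -0.11 for them. Separate samples, with or without the replicate block, gave 0.03 for Herpud1, -0.02 for Manf, -0.04 for Hsp90b1 and -0.01 for Vcp. Treated library 3 alone gave -0.003 for Crebrf and 0.16 for Pdia3. Leaving out 1 library gave -0.26 to 0.18 for Herpud1 (0.14 without homozygous library 2, 0.18 without treated library 3), -0.28 to 0.22 for Manf, -0.19 to 0.05 for Hsp90b1, -0.09 to 0.40 for Ppib and -0.07 to 0.07 for Vcp (-0.03 without homozygous library 1). The cause was not tested. Whether the replicate numbers pair the samples is not known. Deviations of same-numbered libraries correlated at 0.0304, -0.146 and -0.117 (treated and homozygous) and 0.0493, -0.14 and -0.0743 (homozygous and WT). For differently numbered libraries the values were -0.131 to 0.149 and -0.136 to 0.164. Deviations within a group cancel out by construction, so these correlations cannot exclude a pairing. With 2 treated samples and unknown depth, a member that did not pass is not shown to be equal between the groups.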
